A study of Mus musculus with 6 samples.

Results

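The genes described here make cholesterol and fatty acids, or control their synthesis. They were chosen by name, from the acetyl-CoA end of the mevalonate route to cholesterol, and from the making, lengthening and desaturation of fatty acids. All 33 had a probe set with a single gene symbol, among 18193 such genes on the array. RNA came from cells grown from the bone marrow of C57BL/6 mice and was measured on 6 Affymetrix arrays, 2 in each of 3 groups. GM-TNFa-DC were dendritic cells obtained from cultured progenitors with the growth factor GM-CSF plus the inflammatory cytokine TNFa. GM-DC were dendritic cells obtained from the same kind of progenitors with GM-CSF and no TNFa in the label. GM-MPP were the multipotent progenitors, grown with stem cell cytokines plus GM-CSF, so GM-CSF was present in all groups. All 3 groups were cultured cells, and the sources used here give no genotype other than the strain, no age, no time in culture and no sort of the cells.

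Cells make cholesterol from acetyl-CoA by way of mevalonate, farnesyl diphosphate, squalene and lanosterol, and fatty acids from acetyl-CoA by way of malonyl-CoA and palmitate. Both routes are driven by the transcription factors SREBP1 and SREBP2, which are made as membrane proteins. When sterols are scarce the escort protein SCAP carries them out of the endoplasmic reticulum to be cut and released, and when sterols are plentiful INSIG proteins hold SCAP back. Dividing cells use these lipids for new membranes, and intermediates of the mevalonate route also supply the lipid anchors of small GTPases.

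Promoter sequence is shown for 5 of the genes, because the SREBPs are known to act on such promoters together with factors that bind CCAAT and GC boxes. All 5 passed the test between array numbers of the dendritic cells described below. None of them passed the main test against the progenitors. The sequences are RefSeq's for mouse build GRCm38.p6, each 250 bases long, ending just before the annotated start and written in the direction of the gene. Capitals mark the letters TCACNCCAC (a sterol response element), CCAAT (the CCAAT box) and GGGCGG (the GC box), read on both strands. Hmgcs1 (chr13:119690101-119690350, plus strand) and Idi1 (chr13:8885356-8885605, plus strand) belong to the mevalonate steps. Cyp51 (chr5:4104698-4104947, minus strand) belongs to the sterol steps, and Fasn (chr11:120824548-120824797, minus strand) and Fads2 (chr19:10101504-10101753, minus strand) to fatty acid synthesis and desaturation.
Hmgcs1: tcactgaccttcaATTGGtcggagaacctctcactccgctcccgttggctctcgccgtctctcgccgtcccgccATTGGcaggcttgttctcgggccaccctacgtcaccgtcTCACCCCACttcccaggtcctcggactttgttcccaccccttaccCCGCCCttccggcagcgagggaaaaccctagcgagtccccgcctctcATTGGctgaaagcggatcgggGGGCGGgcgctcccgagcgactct
Idi1: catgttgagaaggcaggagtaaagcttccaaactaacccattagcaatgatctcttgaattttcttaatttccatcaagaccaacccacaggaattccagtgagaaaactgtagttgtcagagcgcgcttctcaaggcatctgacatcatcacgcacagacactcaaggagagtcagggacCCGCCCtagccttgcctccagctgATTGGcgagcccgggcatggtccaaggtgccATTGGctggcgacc
Cyp51: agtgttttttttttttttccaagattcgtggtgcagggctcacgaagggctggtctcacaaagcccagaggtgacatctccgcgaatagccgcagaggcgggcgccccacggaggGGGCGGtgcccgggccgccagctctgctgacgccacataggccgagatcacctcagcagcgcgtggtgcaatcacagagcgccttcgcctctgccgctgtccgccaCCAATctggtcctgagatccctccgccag
Fasn: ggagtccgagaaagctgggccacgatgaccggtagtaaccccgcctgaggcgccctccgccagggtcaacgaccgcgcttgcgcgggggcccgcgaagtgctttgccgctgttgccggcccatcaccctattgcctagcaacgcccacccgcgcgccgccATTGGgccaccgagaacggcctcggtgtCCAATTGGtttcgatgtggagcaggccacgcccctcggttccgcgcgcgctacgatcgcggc
Fads2: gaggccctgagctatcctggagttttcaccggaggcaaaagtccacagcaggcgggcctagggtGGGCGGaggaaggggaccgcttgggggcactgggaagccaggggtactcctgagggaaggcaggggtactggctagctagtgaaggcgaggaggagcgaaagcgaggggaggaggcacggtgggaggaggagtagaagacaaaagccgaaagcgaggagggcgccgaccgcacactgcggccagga

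The Hmgcs1 stretch held 1 sterol element, which starts 137 bases before the gene, with 3 CCAAT boxes and 2 GC boxes. Idi1 held 2 CCAAT boxes and 1 GC box, and Cyp51 held 1 of each. Fasn held 3 CCAAT boxes, of which 2 overlap on opposite strands within the run CCAATTGG, and Fads2 held no CCAAT box and 1 GC box. RefSeq's table had 35 promoters for 26 of the 33 genes (none for Fads1, Fdft1, Fdps, Scd1, Scd2, Sqle and Stard4). The CCAAT box stood in 22 of these 35 promoters, or 62.9%, against 34.7% of the 18109 promoters of all genes tested. The GC box stood in 25, or 71.4%, against 48.3%, and the sterol element in 1, or 2.86%, against 1.05%. A further motif, CACGTG (an E-box), stood in 5, or 14.3%, against 7.38%. Such matches describe the letters in these windows and were not tested for binding.

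The deposited values are on a log2 scale, so a difference of 1 is a 2-fold difference, and array medians lay between 4.67 and 4.77. The labels number the samples of each group 1 and 2. Separate cultures or animals are not named, so the p-values reflect only how far these arrays differ, a spread that may be technical. With so few arrays the precision is low. Dendritic cell markers had mean levels of 11.75 and 10.16 in GM-TNFa-DC and 11.08 and 9.82 in GM-DC, against 5.29 and 5.43 in GM-MPP. Progenitor markers averaged 6.25 and 5.64 in GM-TNFa-DC and 6.38 and 5.70 in GM-DC, against 8.16 and 8.49 in GM-MPP. All 12 dendritic cell markers had higher means in GM-DC than in GM-MPP and 10 were called. Of the 9 progenitor markers limma called 6 lower, among them Cd34 and Myb. Of all genes, it called 1.87% higher and 2.63% lower in GM-DC against GM-MPP. Kit, Sox4 and Cd48 were not called and had higher means in GM-DC. Kit had 8.66 and 5.43 in GM-TNFa-DC and 8.997 and 5.65 in GM-DC, against 7.09 and 7.22 in GM-MPP. The 5 neutrophil precursor genes, Mpo and Elane among them, averaged 5.10 and 4.85 in GM-TNFa-DC and 5.90 and 5.27 in GM-DC, against 12.30 and 12.65 in GM-MPP. Macrophage markers averaged 10.21 and 10.08 in GM-TNFa-DC and 10.66 and 10.30 in GM-DC, against 7.18 and 7.37 in GM-MPP, and mast cell and basophil markers averaged 5.16 and 5.11 in GM-TNFa-DC and 5.48 and 5.08 in GM-DC, against 6.85 and 7.01 in GM-MPP. Of the 8 macrophage markers 4 were called higher in each kind of dendritic cell against GM-MPP. Of the 6 mast cell and basophil markers 4 were called lower in GM-TNFa-DC and 2 in GM-DC. In GM-TNFa-DC against GM-MPP, 2.77% of all genes were called higher and 4.26% lower. The part of neutrophil precursors, macrophages, mast cells and basophils in the results below was not tested. All 4 measured stromal and adipocyte genes lay below the median gene on every array. Over all genes, the number-1 and number-2 dendritic cell arrays stood apart, and results are given by number where this touches them.

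In dendritic cells grown with GM-CSF, most of the lipid synthesis genes lay below their level in the progenitors, but only 1 passed the test. The mean was lower in GM-DC than in GM-MPP for 29 of 33 genes, with a median log2 change of -0.82, while over all genes tested the median was 0.02 and 46.9% were lower. The change was at least 2-fold lower for 11 genes, against 7.13% of all genes. In 20 genes both GM-DC arrays lay below both GM-MPP arrays, an arrangement that 27% of all genes showed. Fdps was the gene called lower (limma, adjusted p = 0.0125), where 2.63% of all genes were called lower and 1.87% higher. No member was called higher by limma, and at an unadjusted p under 0.05 there were 9 lower and 1 higher. Of all 18193 genes, 2272 were lower and 1649 higher at that unadjusted p. The 4 genes with a higher mean were Insig2, Me1, Scd1 and Scd2. With the array number as a block, an alternative fit described at the end, limma called 5 members and 849 of all genes lower. In bulk RNA, fewer cells of a type and less RNA per cell cannot be told apart.

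**Figure D1:**
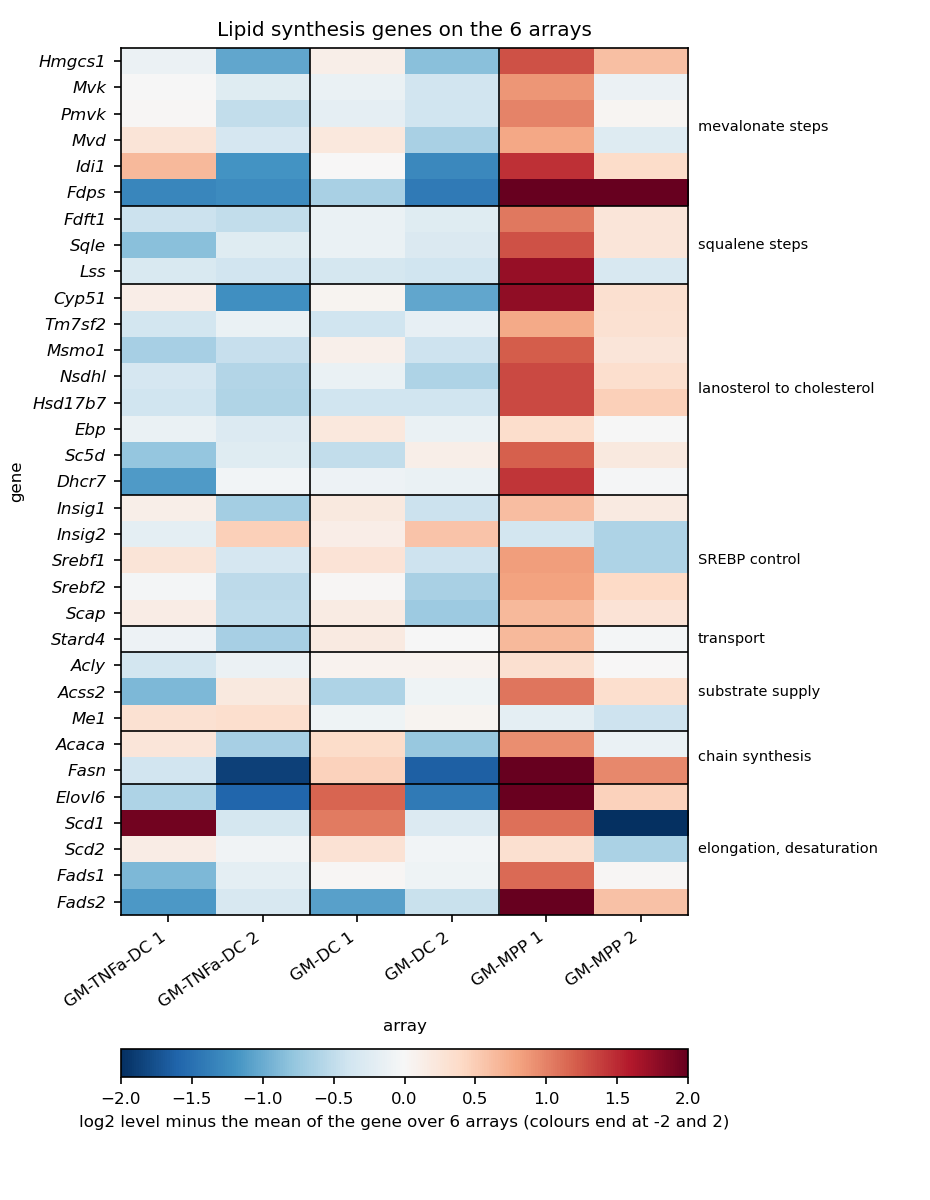
Levels of the 33 genes (rows, ordered by role) on the 6 arrays (columns, GM-TNFa-DC, GM-DC, then GM-MPP), as log2 level minus the gene's mean over the arrays, with colours ending at -2 and 2. GM-MPP 1 was the highest array for 30 of the 33 genes, and GM-MPP 2 lay below at least 1 dendritic cell array in 16.

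The size of the drop rested on which progenitor array was taken. GM-MPP 1 was the highest of all 6 arrays for 30 of the 33 genes. GM-MPP 2 lay below at least 1 dendritic cell array for 16. Between the number-1 arrays the median log2 change of GM-DC against GM-MPP was -1.11, and between the number-2 arrays it was -0.48. Leaving out GM-MPP 1 gave a median of -0.39, and leaving out GM-MPP 2 gave -1.24. GM-DC was lower on both numbers for 26 genes, higher on both for 2 and in opposite directions for 5. Among all genes, 32.6% were lower on both.

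Of the 6 mevalonate genes, all had a lower mean in GM-DC than in GM-MPP, with a median log2 change of -1.05 and no overlap of the arrays in 5. Fdps makes farnesyl diphosphate, from which both the sterol route and the prenyl anchors of proteins branch off. Its level was 9.43 and 8.66 in GM-DC, against 12.70 and 12.07 in GM-MPP. All dendritic cell arrays lay more than 2-fold below both progenitor arrays. The log2 change of Fdps was -3.34 ± 0.34 (moderated SE, n = 2 each), or 10.1-fold lower. The limma adjusted p was 0.0125, and it came to 0.0919 without GM-MPP 1 and 0.0718 without GM-MPP 2. A second Fdps probe set, dim on every array, was slightly higher in GM-DC. The mean of both gave a log2 change for Fdps of -1.66, with a limma adjusted p of 0.0373.

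Hmgcs1 condenses acetyl-CoA and acetoacetyl-CoA to HMG-CoA at the start of the route. Its level was 9.61 and 8.66 in GM-DC, against 10.76 and 10.09 in GM-MPP. The groups did not overlap, and the log2 change was -1.29 ± 0.48 (limma adjusted p = 0.2). Idi1, which isomerises isopentenyl diphosphate, had 8.55 and 7.25 in GM-DC, against 10.02 and 8.92 in GM-MPP. The groups did not overlap for Idi1 either, but the arrays within each group differed by more than 2-fold, and the log2 change was -1.56 ± 0.77 (limma adjusted p = 0.316). The kinases Mvk and Pmvk phosphorylate mevalonate and its product. Mvk had 7.17 and 6.93 in GM-DC, against 8.19 and 7.18 in GM-MPP, and Pmvk had 7.35 and 7.14 in GM-DC, against 8.52 and 7.56 in GM-MPP. For both kinases GM-MPP 2 lay close above the GM-DC arrays, and the log2 changes were -0.64 ± 0.36 for Mvk and -0.80 ± 0.38 for Pmvk. Mvd, which removes the carboxyl group before isoprene units are joined, was the mevalonate gene whose groups overlapped, with 8.20 and 7.34 in GM-DC, against 8.76 and 7.74 in GM-MPP. The log2 change of Mvd was -0.47 ± 0.47 (limma adjusted p = 0.623) and came to 0.039 without GM-MPP 1.

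The 3 genes from squalene to lanosterol had lower means in GM-DC, with no overlap in any and a median log2 change of -0.97, and none was called. Fdft1, squalene synthase, had 8.20 and 8.09 in GM-DC, against 9.39 and 8.57 in GM-MPP. Of the 4 Fdft1 probe sets, 2 were lower and 2 higher in GM-DC. The 2 higher ones were dim, between 4.66 and 5.57 on every array. The other lower one had 7.92 and 7.93 in GM-DC, against 9.61 and 8.63 in GM-MPP. Sqle, squalene epoxidase, had 8.21 and 8.06 in GM-DC, against 9.62 and 8.59 in GM-MPP. The log2 changes were -0.84 ± 0.31 for Fdft1 and -0.97 ± 0.40 for Sqle. Lss, which closes the rings to give lanosterol, had 7.01 and 6.96 in GM-DC, against 9.10 and 7.04 in GM-MPP. GM-MPP 2 thus lay close to the level of Lss in dendritic cells and GM-MPP 1 far above it, and the log2 change of -1.08 ± 0.64 had a limma adjusted p of 0.398.

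All 8 genes from lanosterol to cholesterol had lower means in GM-DC, with a median log2 change of -0.88. In 7 of them the arrays did not overlap, and none was called. Cyp51, the lanosterol demethylase, had 7.15 and 6.06 in GM-DC, against 8.87 and 7.42 in GM-MPP (log2 change -1.54 ± 0.70). Hsd17b7, a ketone reductase that acts as the methyl groups are taken off, had 6.34 and 6.33 in GM-DC, against 8.05 and 7.22 in GM-MPP. Its GM-DC arrays were alike, and its log2 change of -1.30 ± 0.31 had the lowest limma adjusted p after Fdps, 0.0818. Of its 4 probe sets, 3 were lower and 1 higher in GM-DC, the higher one being dim, between 3.10 and 3.48 on every array. Nsdhl, the dehydrogenase of the same steps, had 8.61 and 8.13 in GM-DC, against 10.05 and 9.08 in GM-MPP (log2 change -1.20 ± 0.38, limma adjusted p = 0.15). Msmo1, the methyl oxidase before them, had 9.41 and 8.90 in GM-DC, against 10.51 and 9.55 in GM-MPP. The groups did not overlap for Nsdhl or Msmo1. Tm7sf2, a sterol reductase, had 6.92 and 7.15 in GM-DC, against 8.08 and 7.63 in GM-MPP, and its log2 change was -0.82 ± 0.24 (limma adjusted p = 0.132). Sc5d, a sterol desaturase, had 7.99 and 8.60 in GM-DC, against 9.67 and 8.68 in GM-MPP. Dhcr7, which makes cholesterol in the last reduction, had 7.13 and 7.10 in GM-DC, against 8.66 and 7.20 in GM-MPP. For Sc5d and Dhcr7, the gap between the groups was small on the side of GM-MPP 2. Ebp, the sterol isomerase, was the gene whose groups overlapped, with 9.15 and 8.81 in GM-DC, against 9.29 and 8.94 in GM-MPP.

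**Figure D2:**
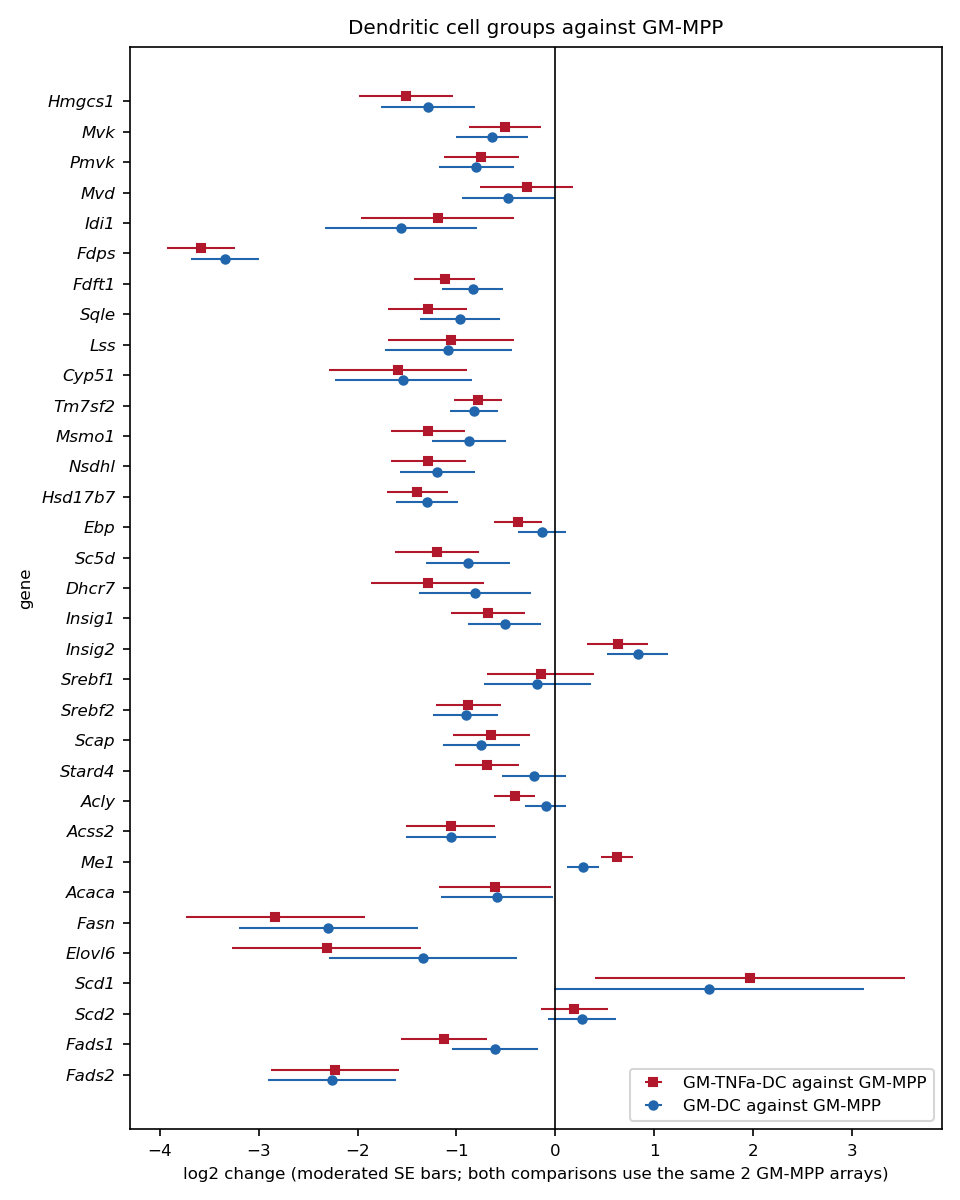
Log2 change of each gene against GM-MPP, for GM-TNFa-DC and GM-DC, ordered by role, with bars for the moderated SE (n = 2 arrays in each group) and 0 marked. Fdps lay lowest at -3.58 in GM-TNFa-DC and -3.34 in GM-DC, and the 2 comparisons share the GM-MPP arrays.

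Among the 5 genes of SREBP control, 4 had lower means in GM-DC and Insig2 a higher one, and none was called. Srebf2, the gene of SREBP2, had 7.75 and 7.08 in GM-DC, against 8.52 and 8.12 in GM-MPP, with no overlap. Its log2 change was -0.91 ± 0.33 (limma adjusted p = 0.195). Scap, the escort protein, had 7.93 and 7.04 in GM-DC, against 8.42 and 8.05 in GM-MPP, also with no overlap. Of the 2 Scap probe sets, 1 was lower and 1 higher, the higher one being dim, between 3.96 and 4.35 on every array. Srebf1, the gene of SREBP1, had 9.39 and 8.71 in GM-DC, against 9.96 and 8.50 in GM-MPP, and Insig1 had 7.19 and 6.56 in GM-DC, against 7.61 and 7.17 in GM-MPP. The groups overlapped for both. Insig2 had 8.04 and 8.48 in GM-DC, against 7.55 and 7.30 in GM-MPP. Both GM-DC arrays lay above both GM-MPP arrays for Insig2, and its log2 change was 0.83 ± 0.31 (limma adjusted p = 0.203). Non-overlap in that direction was seen in 28.3% of all genes. Stard4, which carries cholesterol between membranes, had 8.14 and 7.95 in GM-DC, against 8.60 and 7.92 in GM-MPP, and the groups overlapped. The other Stard4 probe sets, of like brightness, did not overlap. The first of them had 7.61 and 7.39 in GM-DC, against 8.30 and 7.77 in GM-MPP. The last had 7.59 and 7.33 in GM-DC, against 9.02 and 7.77 in GM-MPP.

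The fatty acid genes were less uniform. Fasn, which builds palmitate, had 8.90 and 6.80 in GM-DC, against 10.89 and 9.40 in GM-MPP. The groups did not overlap, but the GM-DC arrays were more than 4-fold apart. The log2 change of Fasn was -2.30 ± 0.90, or 4.92-fold lower, with a limma adjusted p of 0.223. Acaca, which supplies malonyl-CoA to Fasn, had 8.17 and 7.04 in GM-DC, against 8.72 and 7.67 in GM-MPP, and its groups overlapped. Fads2, a desaturase of polyunsaturated fatty acids, had 5.18 and 5.82 in GM-DC, against 8.68 and 6.85 in GM-MPP. Its GM-DC arrays lay near the level of the median gene, 5.64 and 5.70, where background makes up part of the signal. The log2 change of Fads2 was -2.26 ± 0.65, or 4.80-fold lower, with a limma adjusted p of 0.122. Its partner Fads1 had 8.24 and 8.14 in GM-DC, against 9.36 and 8.24 in GM-MPP, and the lower GM-MPP array was level with the dendritic cells.

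Elovl6, which lengthens palmitate, had 8.29 and 5.71 in GM-DC, against 9.09 and 7.58 in GM-MPP. The groups overlapped, and the log2 change was -1.34 ± 0.95 (limma adjusted p = 0.483). The stearoyl-CoA desaturases Scd1 and Scd2 make oleate and palmitoleate. Scd1 had 9.49 and 8.19 in GM-DC, against 9.55 and 5.01 in GM-MPP. The Scd1 level of GM-MPP 2 was thus far below all other arrays and that of GM-MPP 1 was at the level of GM-DC 1. The log2 change of Scd1 was 1.56 ± 1.57 (limma adjusted p = 0.627), and it came to -0.71 without GM-MPP 2. Scd2 had 12.02 and 11.68 in GM-DC, against 12.05 and 11.10 in GM-MPP, with overlapping groups. Of the genes that supply acetyl-CoA and NADPH, Acly, which splits citrate, had 10.25 and 10.24 in GM-DC, against 10.50 and 10.19 in GM-MPP, with overlap. Of the 6 Acly probe sets, 5 were lower and 1 higher. The higher one was bright, with 9.73 and 10.08 in GM-DC, against 10.06 and 9.69 in GM-MPP. Acss2, which uses acetate, had 5.38 and 5.92 in GM-DC, against 7.08 and 6.34 in GM-MPP, and did not overlap (log2 change -1.06 ± 0.45, limma adjusted p = 0.256). Me1, the malic enzyme, was dim, with 5.28 and 5.42 in GM-DC, against 5.17 and 4.96 in GM-MPP.

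**Figure D3:**
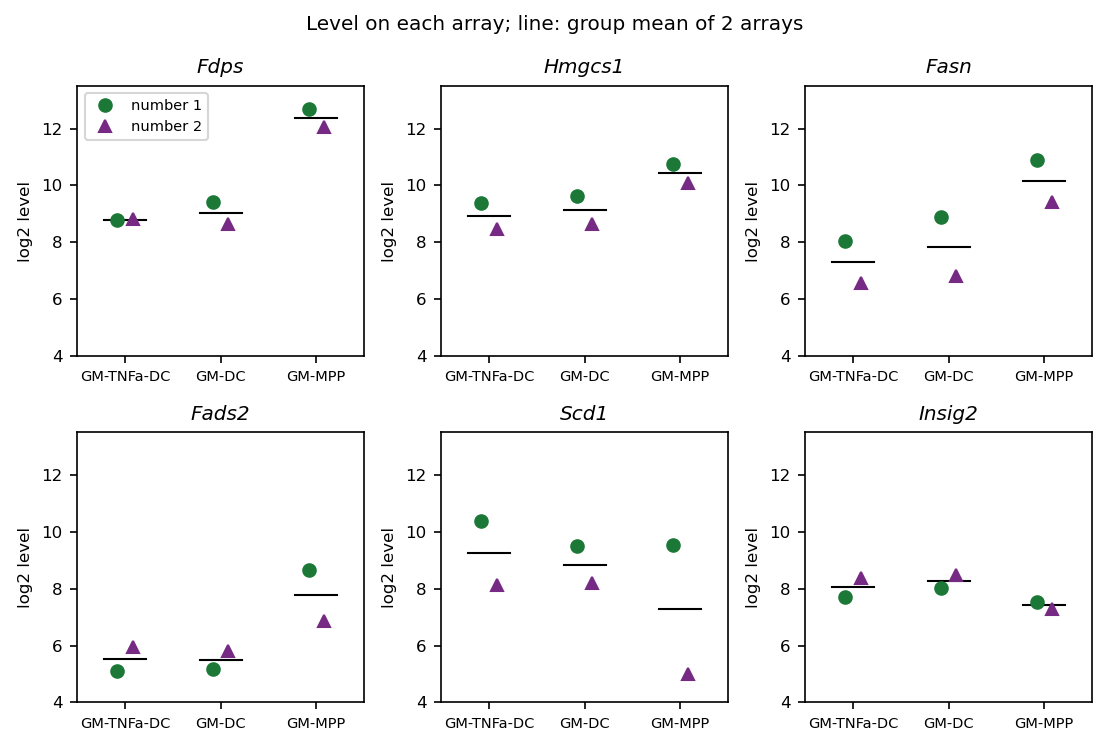
Log2 levels of Fdps, Hmgcs1, Fasn, Fads2, Scd1 and Insig2 on each array (points, marked by array number) in GM-TNFa-DC, GM-DC and GM-MPP, with a line at each group mean. For Fdps, the dendritic cell arrays lay between 8.66 and 9.43 and the GM-MPP arrays at 12.70 and 12.07, while for Scd1 GM-MPP 1 stood at 9.55 and GM-MPP 2 at 5.01.

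Dendritic cells grown with TNFa were also below the progenitors for most of the genes. This comparison and the preceding one share the GM-MPP arrays, so their values stand side by side and are not independent. The mean was lower in GM-TNFa-DC than in GM-MPP for 29 of 33 genes, with a median log2 change of -1.05, while the median of all genes was 0.05 and 44% were lower. In 23 genes both GM-TNFa-DC arrays lay below both GM-MPP arrays, and 26.1% of all genes did so. The change was at least 2-fold lower for 17 genes. Between the number-1 arrays the median was -1.12 and between the number-2 arrays -0.53, and it was -0.56 without GM-MPP 1 and -1.43 without GM-MPP 2. Fdps was the member called lower, where 4.26% of all genes were called lower and 2.77% higher. None was called higher by limma, and at an unadjusted p under 0.05 there were 13 lower and 1 higher. Of all 18193 genes, 2482 were lower and 2091 higher at that unadjusted p. With the array number as a block, an alternative fit described at the end, limma called 9 members and 1210 of all genes lower.

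Fdps had 8.77 and 8.82 in GM-TNFa-DC, against 12.70 and 12.07 in GM-MPP. Its log2 change was -3.58 ± 0.34 (moderated SE, n = 2 each), or 12-fold lower, with a limma adjusted p of 0.00892. The call was lost without GM-MPP 1 (limma adjusted p = 0.0738) and without GM-MPP 2 (limma adjusted p = 0.0596). Fasn had 8.06 and 6.57 in GM-TNFa-DC, against 10.89 and 9.40 in GM-MPP, and its log2 change was -2.83 ± 0.90 (limma adjusted p = 0.129). Elovl6 had 6.51 and 5.54 in GM-TNFa-DC, against 9.09 and 7.58 in GM-MPP, and its log2 change was -2.31 ± 0.95 (limma adjusted p = 0.207). Neither gene's groups overlapped. Fads2 had 5.12 and 5.95 in GM-TNFa-DC, against 8.68 and 6.85 in GM-MPP, and Hsd17b7 had 6.34 and 6.14 in GM-TNFa-DC, against 8.05 and 7.22 in GM-MPP. Their log2 changes were -2.23 ± 0.65 for Fads2 (limma adjusted p = 0.107) and -1.40 ± 0.31 for Hsd17b7 (limma adjusted p = 0.059). The lanosterol to cholesterol genes did not overlap in 8 of 8, with a median log2 change of -1.29. Hmgcs1 had 9.38 and 8.46 in GM-TNFa-DC, against 10.76 and 10.09 in GM-MPP. Cyp51, with 7.23 and 5.88 in GM-TNFa-DC, against 8.87 and 7.42 in GM-MPP, also did not overlap. Me1 and Insig2 lay above the progenitors on both arrays, as did 31.6% of all genes. Me1 had 5.68 and 5.70 in GM-TNFa-DC, against 5.17 and 4.96 in GM-MPP (log2 change 0.63 ± 0.16, limma adjusted p = 0.0848). Scd1 had 10.39 and 8.12 in GM-TNFa-DC, against 9.55 and 5.01 in GM-MPP, and its log2 change of 1.97 ± 1.57 (limma adjusted p = 0.48) came to -0.30 without GM-MPP 2.

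No lipid synthesis gene was called between dendritic cells grown with and without TNFa. Limma called 0 of 33 members, and 0 had an unadjusted p under 0.05. Of all genes 0% were called in either direction, and at an unadjusted p under 0.05 there were 270 higher and 140 lower. The smallest unadjusted p of a member was 0.0839, for Me1, which had 5.68 and 5.70 in GM-TNFa-DC, against 5.28 and 5.42 in GM-DC. The mean was lower in GM-TNFa-DC for 21 genes and higher for 12, with a median log2 change of -0.09, against 0.01 and 47% lower over all genes. That median was 0.14 without GM-DC 1 and 0.03 without GM-TNFa-DC 2, where the numbers are unequal between the groups. Between the number-1 arrays it was -0.14 and between the number-2 arrays -0.02. In 5 genes both GM-TNFa-DC arrays lay below both GM-DC arrays (Fdft1, Msmo1, Stard4, Acly and Fads1), where 10.6% of all genes did so. In 1, Me1, they lay above, where 14.9% of all genes did so. Of the Fdft1 probe sets, 3 were lower and 1 higher in GM-TNFa-DC, and of the Acly probe sets 4 were lower and 2 higher. With the array number as a block over all 6 arrays, an alternative fit described at the end, limma called 0 members and 0 of all genes.

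The 2 largest differences between the dendritic cell groups, those of Elovl6 and Fasn, came with arrays far apart within a group. Elovl6 had 6.51 and 5.54 in GM-TNFa-DC, against 8.29 and 5.71 in GM-DC. The groups overlapped, and the log2 change of -0.98 ± 0.95 turned to 0.32 without GM-DC 1. Between arrays of the same number it was -1.78 for number 1 and -0.17 for number 2. Fasn had 8.06 and 6.57 in GM-TNFa-DC, against 8.90 and 6.80 in GM-DC. Its log2 change of -0.53 ± 0.90 turned to 0.52 without GM-DC 1 and to 0.21 without GM-TNFa-DC 2. Between arrays of the same number it was -0.84 for number 1 and -0.23 for number 2. Leaving out an array leaves the numbers unequal between the groups, so a change of sign can come from the number. Dhcr7 had 6.10 and 7.18 in GM-TNFa-DC, against 7.13 and 7.10 in GM-DC, so that GM-TNFa-DC 1 stood alone. Its log2 change was -0.48 ± 0.57, and 0.063 without GM-TNFa-DC 1. Scd1 had 10.39 and 8.12 in GM-TNFa-DC, against 9.49 and 8.19 in GM-DC. Its log2 change of 0.41 ± 1.57 turned to -0.24 without GM-DC 2 and to -0.73 without GM-TNFa-DC 1. Between arrays of the same number, Scd1 changed by 0.90 for number 1 and -0.07 for number 2. Dhcr7 changed by -1.04 for number 1 and 0.08 for number 2. Among genes whose groups did not overlap, Fads1 had the largest change, with 7.32 and 8.03 in GM-TNFa-DC, against 8.24 and 8.14 in GM-DC (log2 change -0.52 ± 0.44). It kept its sign with each array left out, from -0.87 to -0.16. Stard4 had 7.85 and 7.29 in GM-TNFa-DC, against 8.14 and 7.95 in GM-DC (log2 change -0.48 ± 0.33). Msmo1 had 8.64 and 8.84 in GM-TNFa-DC, against 9.41 and 8.90 in GM-DC (log2 change -0.42 ± 0.38). All the adjusted p-values of these genes from limma were 1.00. A p that misses the threshold does not show that the levels were alike, and the standard errors of 0.33 to 1.57 here are large beside the changes. These errors take in the difference between array numbers, which the fit does not model.

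The lipid synthesis genes also differed between arrays of the same group, with the most uniform direction in the progenitors. All 33 were higher on GM-MPP 1 than on GM-MPP 2, while 49.7% of all genes were. The difference was at least 2-fold for 14 of them, against 0.857% of all genes. None was at least 2-fold lower on GM-MPP 1, where 1.32% of all genes were. The median was 0.97 on the log2 scale, and the difference ran from 0.21 for Me1 to 4.54 for Scd1. With 1 progenitor array of each number, the progenitors alone allow no test of this difference. Genes of both the sterol and the fatty acid routes were among those with wide gaps. Lss differed by 2.07, Fads2 by 1.82, Elovl6 by 1.51, Fasn by 1.49, Dhcr7 by 1.46, Srebf1 by 1.46 and Cyp51 by 1.45. The medians by role were 0.98 for the mevalonate genes, 1.03 for squalene to lanosterol, 0.97 for lanosterol to cholesterol, 0.40 for SREBP control, 0.31 for substrate supply, 1.27 for the chain synthesis genes Acaca and Fasn, and 1.51 for elongation and desaturation. Stard4 differed by 0.69.

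**Figure D4:**
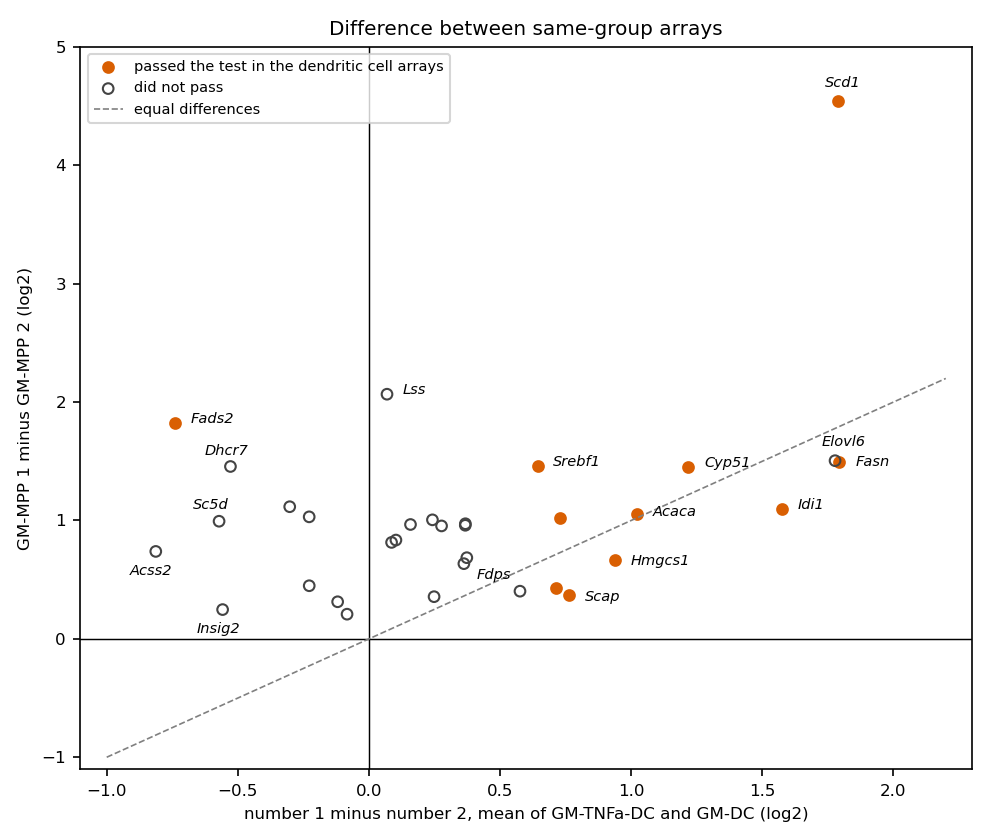
Each point is 1 of the 33 genes, with its number-1 minus number-2 difference (log2) averaged over GM-TNFa-DC and GM-DC on the horizontal axis and that of the GM-MPP pair on the vertical axis; filled points passed the limma test on the dendritic cell arrays and the dashed line marks equal differences. All points lie above 0 on the vertical axis, between 0.21 and 4.54, while 10 of the 11 filled points lie to the right of 0 and Fads2 lies to the left at -0.74.

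In the dendritic cells, some of the genes were higher on number 1 and others were lower. In GM-TNFa-DC, 21 of the 33 genes were higher on array 1, as were 44.2% of all genes, with a median difference of 0.22. A gap of 2-fold or more upward was found in 4 of them and downward in 2, against 4.24% and 4.71% of all genes. In GM-DC, 27 were higher on array 1, as were 49.8% of all genes, with a median of 0.33. Here 6 had a gap of 2-fold or more upward and 0 downward, against 3.25% and 4.05% of all genes. The test of number 1 against number 2 over the 4 dendritic cell arrays called 10 members higher and 1 lower, where limma called 5.41% of all genes higher and 6.41% lower. The fit has 1 residual degree of freedom. Its calls were lost when the GM-MPP arrays were included, where it called 0 of all genes, with 1091 higher and 1202 lower at an unadjusted p under 0.05.

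The called genes came from several roles. Fasn had 8.06 on GM-TNFa-DC 1 and 8.90 on GM-DC 1, against 6.57 on GM-TNFa-DC 2 and 6.80 on GM-DC 2. Both number-1 arrays were thus above both number-2 arrays, and the log2 difference was 1.79 ± 0.20 (limma adjusted p = 0.00903). Idi1 had 9.20 on GM-TNFa-DC 1 and 8.55 on GM-DC 1, against 7.35 on GM-TNFa-DC 2 and 7.25 on GM-DC 2 (log2 difference 1.57 ± 0.18, limma adjusted p = 0.0107). Cyp51 had 7.23 on GM-TNFa-DC 1 and 7.15 on GM-DC 1, against 5.88 on GM-TNFa-DC 2 and 6.06 on GM-DC 2 (log2 difference 1.22 ± 0.15, limma adjusted p = 0.0136). Acaca had a log2 difference of 1.02 ± 0.14 (limma adjusted p = 0.0173) and Hmgcs1 of 0.94 ± 0.13 (limma adjusted p = 0.0158). Scd1 differed by 1.79 ± 0.25 (limma adjusted p = 0.0172). Mvd, Insig1, Srebf1 and Scap were the other genes called higher on number 1, with log2 differences between 0.64 and 0.76. Of the 5 promoters printed above, Hmgcs1, Idi1, Cyp51 and Fasn belong to genes called higher on number 1 of the dendritic cell arrays. Fads2 was the gene called lower there, and in GM-MPP it was 1.82 higher on number 1. The Acaca promoter, not printed, held none of the motifs searched, though Acaca was called higher. A link between motifs and array number was not tested.

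Fads2 had 5.12 on GM-TNFa-DC 1 and 5.18 on GM-DC 1, against 5.95 on GM-TNFa-DC 2 and 5.82 on GM-DC 2. Its log2 difference was -0.74 ± 0.15 (limma adjusted p = 0.043), with both number-1 arrays lower, at levels near the median gene. Acss2, with a log2 difference of -0.81 ± 0.19, and Sc5d, with -0.57 ± 0.13, were also lower in value on number 1, with limma adjusted p-values of 0.0603 and 0.0621. Whether the number difference of the progenitor pair exceeded that of the dendritic cell arrays was compared by limma on all 6 arrays. The progenitor pair gives no spread of its own in this fit. The error, with 1 residual degree of freedom, comes from the dendritic cell arrays, and the progenitor arrays are assumed to vary as they do. Under that assumption the fit called 3 members, with a larger difference in the progenitors, where 1.61% of all genes were called larger and 0.923% smaller. They were Lss, at 2.07 in GM-MPP, against 0.08 in GM-TNFa-DC and 0.05 in GM-DC, Fads2, at 1.82 in GM-MPP, against -0.84 in GM-TNFa-DC and -0.64 in GM-DC, and Sc5d, at 0.99 in GM-MPP, against -0.53 in GM-TNFa-DC and -0.61 in GM-DC. The differences of these differences were 2.00 ± 0.24 for Lss (limma adjusted p = 0.0327), 2.56 ± 0.26 for Fads2 (limma adjusted p = 0.0277) and 1.57 ± 0.23 for Sc5d (limma adjusted p = 0.0464). They come from the brightest probe set of each gene, and dimmer probe sets of Lss and Sc5d did not all show these directions.

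Genes of dividing cells had lower values in the dendritic cells, and most differed by number. Their 15 measured members had mean levels of 6.99 on array 1 and 8.43 on array 2 of GM-TNFa-DC, 7.28 and 8.88 in GM-DC, and 10.27 and 9.77 in GM-MPP. Against GM-MPP their median log2 change was -2.42 in GM-TNFa-DC and -1.99 in GM-DC. Limma called 2 of 15 lower in GM-TNFa-DC and 1, Mcm7, in GM-DC, where 4.26% and 2.63% of all genes were called lower. On the dendritic cell arrays 14 of 15 were called lower on number 1 by limma, where 6.41% of all genes were. Of the lipid synthesis genes 10 were called higher there and 1, Fads2, lower. In GM-MPP the median of the dividing cell genes was 0.50 higher on number 1. Of the 12 dendritic cell markers, 10 were called higher on number 1 of the dendritic cell arrays, where 5.41% of all genes were, with a median difference of 1.47. This test has 1 residual degree of freedom, and its calls were lost when the GM-MPP arrays were included. The part of cell division or of the makeup of the cultures in the levels of the lipid synthesis genes was not tested.

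Other genes of lipid metabolism were called in both directions against the progenitors. Of 40 genes for the processing of SREBPs, side branches, fatty acid activation and sterol handling, 35 were measured. Their median log2 change was 0.01 for GM-DC against GM-MPP and -0.15 for GM-TNFa-DC against GM-MPP. Of the 35, limma called 2 higher and 2 lower in GM-DC against GM-MPP, where 1.87% of all genes were called higher and 2.63% lower. In GM-TNFa-DC against GM-MPP it called 3 higher and 3 lower, where 2.77% of all genes were called higher and 4.26% lower. Between the dendritic cell groups it called 0 of the 35, and 0% of all genes. Ch25h, which makes 25-hydroxycholesterol, had 9.24 and 8.96 in GM-TNFa-DC and 9.31 and 8.76 in GM-DC, against 6.43 and 4.45 in GM-MPP. Lipa, the lysosomal lipase that frees cholesterol from its esters, had 9.62 and 9.47 in GM-TNFa-DC and 9.89 and 9.84 in GM-DC, against 8.14 and 7.91 in GM-MPP. All dendritic cell arrays lay above both progenitor arrays for both genes. In GM-DC the log2 change of Ch25h was 3.60 ± 0.64 (limma adjusted p = 0.0434) and that of Lipa 1.84 ± 0.20 (limma adjusted p = 0.0138).

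Hacd2 and Tecr, enzymes of the cycle that lengthens very long fatty acids, were called lower in both kinds of dendritic cell. Hacd2 had 9.05 and 9.16 in GM-TNFa-DC and 9.13 and 9.49 in GM-DC, against 10.89 and 10.75 in GM-MPP. Tecr had 9.79 and 10.22 in GM-TNFa-DC and 9.92 and 10.19 in GM-DC, against 11.34 and 11.30 in GM-MPP. For both genes the dendritic cell arrays lay below both progenitor arrays, and the progenitor arrays were close to each other. In GM-DC the log2 change was -1.51 ± 0.21 for Hacd2 (limma adjusted p = 0.0259) and -1.26 ± 0.23 for Tecr (limma adjusted p = 0.0437). Mylip, which marks the LDL receptor for breakdown, had 10.07 and 9.12 in GM-TNFa-DC and 9.93 and 9.35 in GM-DC, against 7.78 and 7.65 in GM-MPP. Its log2 change was 1.89 ± 0.38 in GM-TNFa-DC (limma adjusted p = 0.047) and 1.93 ± 0.38 in GM-DC (limma adjusted p = 0.0559, not called). Aacs had 6.87 and 6.78 in GM-TNFa-DC and 7.38 and 7.06 in GM-DC, against 8.48 and 7.89 in GM-MPP. It was called lower in GM-TNFa-DC only (log2 change -1.36 ± 0.27, limma adjusted p = 0.0456). Over number 1 against number 2 of the dendritic cell arrays, limma called 6 of the 35 higher and 5 lower, where 5.41% and 6.41% of all genes were, among them Cyp27a1, a sterol hydroxylase, at a log2 difference of 2.01 ± 0.17 (limma adjusted p = 0.005).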

How the data were processed

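Total RNA of each sample was hybridised to 1 Affymetrix array, per the labels' protocols. Per the submitters' processing notes the authors made the deposited log2 values with RMA, and per the labels in Bioconductor. The log2 scale was inferred from their range of 1.89 to 14.4, and which arrays were normalized together is not given in the sources used here. RMA removes differences in overall brightness and compresses the changes of dim genes.

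Of 45101 probe sets, 34945 had 1 gene symbol, and 34741 of these were updated through a RefSeq table (GRCm38.p6). The probe set with the highest mean over the 6 arrays stood for a gene. Another probe set is mentioned where its direction differed in GM-DC against GM-MPP, and for Stard4, Lss and Sc5d. In GM-TNFa-DC against GM-MPP the probe sets of Fdft1, Scap and Acly also differed in direction. For GM-TNFa-DC against GM-DC not all such cases are given. All groups entered 1 limma 3.58.1 fit in R 4.3.3 (lmFit, eBayes with trend), which left 3 residual degrees of freedom. P-values were adjusted by Benjamini-Hochberg over 18193 genes, with a threshold of 0.05. Array numbers were compared on the 4 dendritic cell arrays with a group term. The comparison of the progenitor pair with these arrays and medians within a number were added after seeing the data. All 33 members were described. Log2 changes given singly were called or at least 0.4 in size, and the text gives part of these. Other pathway genes were named where called against GM-MPP, and 1 of those called between array numbers was named. The fit was tested on simulated data. The members and lists were chosen with earlier results of these data known. Alternatives were another normalization, dim genes left out, the mean of probe sets, other priors, only the arrays compared, the number as a block and each array left out.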

Additional observations from a re-analysis of the deposited data

Results flagged for a closer look

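For 3 genes the difference between the number-1 and number-2 arrays was larger in the progenitors than in the dendritic cells in a limma fit on all 6 arrays. The progenitor pair gives no spread of its own there, so the error, with 1 residual degree of freedom, comes from the dendritic cell arrays, and the progenitor arrays are assumed to vary alike. Lss, lanosterol synthase, had an excess of 2.00 on the log2 scale, with GM-MPP 1 at 9.10, GM-MPP 2 at 7.04 and the dendritic cell arrays between 6.96 and 7.06. Fads2, the polyunsaturated fatty acid desaturase, had an excess of 2.56, and its direction was opposite in the cell types. Sc5d, the sterol desaturase, had an excess of 1.57, also with opposite directions. These values are of the brightest probe set of each gene. A dimmer Sc5d probe set had 5.80 and 5.49 in GM-MPP, 5.00 and 5.11 in GM-DC and 4.99 and 4.92 in GM-TNFa-DC. The dimmest had 4.71 and 4.65 in GM-MPP, 4.35 and 4.77 in GM-DC and 4.488 and 4.485 in GM-TNFa-DC. Dim Lss probe sets had 4.65 and 4.73, and 5.33 and 4.31, on GM-MPP 1 and 2. In this test limma called 1.61% of all genes larger in the progenitors and 0.923% smaller.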

How the results depend on the processing

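Under another normalization, other priors, centring, the mean of probe sets or only the arrays compared, 1 member was called lower in each comparison with GM-MPP, as reported. With dim genes left out, 2 were called lower in GM-TNFa-DC against GM-MPP, Hsd17b7 being the addition (limma adjusted p = 0.0435). Leaving out each array in turn gave 0 to 1 in both comparisons. It moved the median of GM-TNFa-DC against GM-DC between -0.32 and 0.14, with a change of sign. Within number 1 that median was -0.14 and within number 2 it was -0.02. Over all genes, leaving out an array gave 20 to 346 higher and 30 to 371 lower calls in GM-DC against GM-MPP, where 340 and 479 were found with every array. In GM-TNFa-DC against GM-MPP it gave 37 to 303 and 51 to 457, where 504 and 775 were found, and with the 4 arrays compared it gave 303 and 446.

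The array numbers were not taken as pairs. The deviations of same-numbered arrays from their group means correlated at 0.81 between GM-TNFa-DC and GM-DC, but at 0.07 between GM-TNFa-DC and GM-MPP and 0.10 between GM-DC and GM-MPP. With the number as a replicate block, 5 members were called lower in GM-DC against GM-MPP (Cyp51, Fasn, Fdps, Hmgcs1 and Idi1). In GM-TNFa-DC against GM-MPP 9 were called lower (Cyp51, Elovl6, Fasn, Fdps, Hmgcs1, Hsd17b7, Idi1, Nsdhl and Srebf2). Of the other pathway genes 5 were called higher under the block in each of these comparisons. Over all genes the block gave 627 higher and 849 lower in GM-DC against GM-MPP, and 850 and 1210 in GM-TNFa-DC against GM-MPP. In GM-TNFa-DC against GM-DC, where same-numbered arrays did correlate, the block called 0 members and 0 of all genes.

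In the test of number 1 against number 2, 5 members were called higher and 0 lower with a 2-fold minimum. With all 6 arrays 0 were called either way, Dhcr7 turned to 0.13 and Fads2 to 0.11. The count called lower, 1 as reported, was 0 after a second quantile normalization, 0 with the mean of probe sets and 2 with dim genes left out. Over all genes that test called 1566 higher with arrays centred on their medians and 984 as reported, and 525 higher and 719 lower with a 2-fold minimum. Leaving out an array was not possible there, since 3 arrays leave no residual degrees of freedom.

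Single genes changed sign when an array was left out. For GM-DC against GM-MPP, Mvd ran from -0.99 to 0.039 and Scd1 from -0.71 to 3.83. For GM-TNFa-DC against GM-MPP, Scd1 ran from -0.30 to 4.24. For GM-TNFa-DC against GM-DC, Dhcr7 ran from -1.02 to 0.063, Fasn from -1.59 to 0.52, Elovl6 from -2.27 to 0.32 and Scd1 from -0.73 to 1.55. Between arrays of the same number, Fasn and Elovl6 kept their sign in that comparison and Dhcr7 and Scd1 did not. The cause of the changes of sign was not tested. Signal near background limits what can be said of Fads2, Acss2 and Me1. The same holds on GM-DC 2 and GM-TNFa-DC 2 for Elovl6, at 5.71 and 5.54, and Cyp51, at 6.06 and 5.88. It also holds for Scd1 on GM-MPP 2, at 5.01.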
